A study of Mus musculus with 6 samples.

Results

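Histone genes were examined in the heads of mouse embryos with and without the histone demethylase Jarid1b, whose current symbol is Kdm5b. A probe set was included where the platform annotation pairs it with exactly 1 gene symbol and that gene carries a symbol or RefSeq synonym starting with Hist1h, Hist2h, Hist3h, Hist4h, H1f, H2af or H3f. Where a gene had more than 1 such probe set, the brightest stood for it. This gave 44 histone genes on 46 probe sets, out of 19938 genes on 21789 probe sets with a single symbol. The annotation uses mostly current symbols, of which 9 begin in this way, so the others were found by their older names, which are used here. Of the 44 genes, 31 were replication-dependent genes (5 of class H1, 5 of H2A, 11 of H2B, 3 of H3 and 7 of H4) and 13 were variants. The 31, placed by symbol, include Hist3h2bb, whose current symbol H2bu1-ps is that of a pseudogene. They also include Hist1h1t, Hist1h2aa and Hist1h2ba, which are known from the testis. RefSeq lists 93 mouse genes by the same naming rule. A further 39 of them were represented only by probe sets shared with other genes, and 10 were on no probe set used here.

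RNA came from heads of embryos at E8.5, with 4 heads pooled per sample, and each pool was measured on 1 array (Affymetrix mouse Gene 1.0 ST). The 3 control pools were Jarid1b+/- and the 3 knockout pools were Jarid1b-/-, all on a C57BL/6 background. The deleted allele lacks exon 6, which was flanked by loxP sites and removed by Cre expressed from the Cmv promoter, so that the loss is constitutive and not limited to a cell type. The controls carry the same deletion on 1 allele, and no wild-type pools were analysed here. The deposited values are RMA intensities on a linear scale and their log2 was taken, so that every level below is a log2 intensity and every change is a log2 fold change, knockout minus heterozygote. Levels of different genes come from different probes, so that a brighter probe set does not show that its gene has more RNA. Brightness is used below only to rank, group and sum probe sets.

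Replication-dependent histone genes lie in clusters, have no introns and are transcribed mainly in S phase, when newly made DNA has to be packed into nucleosomes. Their mRNAs end in a stem-loop in place of a poly(A) tail, and this stem-loop is bound by the protein Slbp, which controls their processing, translation and decay. Variant histone genes mostly lie alone, are transcribed throughout the cell cycle into polyadenylated mRNAs, and encode proteins that replace the canonical histones at particular places, such as H2A.Z and H3.3 at promoters and macroH2A on silenced chromatin. The neural plate and mesenchyme of the early head divide rapidly and so require a steady supply of canonical histones.

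Jarid1b itself separated the genotypes. Its log2 intensity was 9.17, 9.12 and 9.16 in heterozygote pools 1 to 3 and 7.63, 7.47 and 7.71 in knockout pools 1 to 3, with a log2 fold change of -1.55 and a standard error of 0.07 (limma, adjusted p = 6.295e-04). Whether any of these probes match exon 6 was not checked, so that loss of the exon and a lower level of the transcript cannot be told apart. The pools differed in other ways as well. Of 7 listed markers of primitive blood, 6 were measured, and their summed linear intensity was 238 to 343 in heterozygotes but 323, 1816 and 480 in knockout pools 1 to 3. The sum in knockout pool 2 came mainly from the globin genes Hba-x and Hbb-bh1. They were at 10.09 and 8.87 there, against at most 7.02 and 5.43 in heterozygotes. Alas2, at 5.99 in that pool, lay within the heterozygotes. Among the 6 markers, the erythroid transcription factor Klf1 was higher at an unadjusted p under 0.05. It was at 4.89, 4.87 and 4.95 in heterozygotes and at 5.02, 5.18 and 5.29 in knockouts, so that every knockout pool was above every heterozygote pool. All 6 markers of yolk sac visceral endoderm were measured, and they summed to 5735 to 6652 in heterozygotes and to 6506, 6569 and 2984 in knockouts. Xist stood at 10.17, 4.22 and 10.08 in heterozygotes and at 8.82, 3.74 and 8.91 in knockouts, and the Y-linked gene Kdm5d at 6.37, 8.07 and 6.35 against 7.57, 7.96 and 7.70. The pools thus held different shares of male and female embryos, and heterozygote pool 2 and knockout pool 2 were lowest in Xist. Among markers of the head, 10 of 10 were measured, and at an unadjusted p under 0.05 Sox1 was higher and Six3 and Hesx1 lower in knockouts. Of 5 heart markers, all measured, Hand2 and Gata4 were lower in the same way. Over all tested probe sets 5.97% were higher and 4.66% lower by this threshold. The part of these differences in the values below was not tested, except where a fit with the Y-linked genes is given.

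None of the 44 histone genes reached an adjusted p under 0.05 (limma). The smallest adjusted p among them was 0.398. The background was 0.00459% of all tested probe sets, namely Jarid1b alone. At an unadjusted p under 0.05, 0 of the 44 histone genes were higher in knockouts, against 5.97% of all tested probe sets. In the other direction 2 of 44 were lower, against 4.66% of all tested probe sets, and these were the H2A gene Hist1h2ae and the H1 gene Hist1h1d. The 44 log2 fold changes ran from -0.26 (Hist2h3c2) to 0.15 (H2al2a), with 21 above and 23 below zero. Their median was -0.01, next to a median of -0.0007 over all tested probe sets. The replication-dependent genes had a median of -0.05 and the variants of 0.02, and neither difference from the general median was tested. P-values measure only the spread between these 6 pools, and exact permutation of 3 pools against 3 has 0.1 as its smallest p for any gene.

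The intervals limit how large a difference could have been missed. For Hist2h3c2 the 95% confidence interval reached a log2 fold change of -0.59, and for Hist1h2bc it reached -0.56, which is 1.48-fold. The next widest bound was -0.42, for Hist1h1t. The standard error had a median of 0.066 among replication-dependent genes and 0.061 among variants, next to 0.071 over all tested probe sets.

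**Figure D1:**
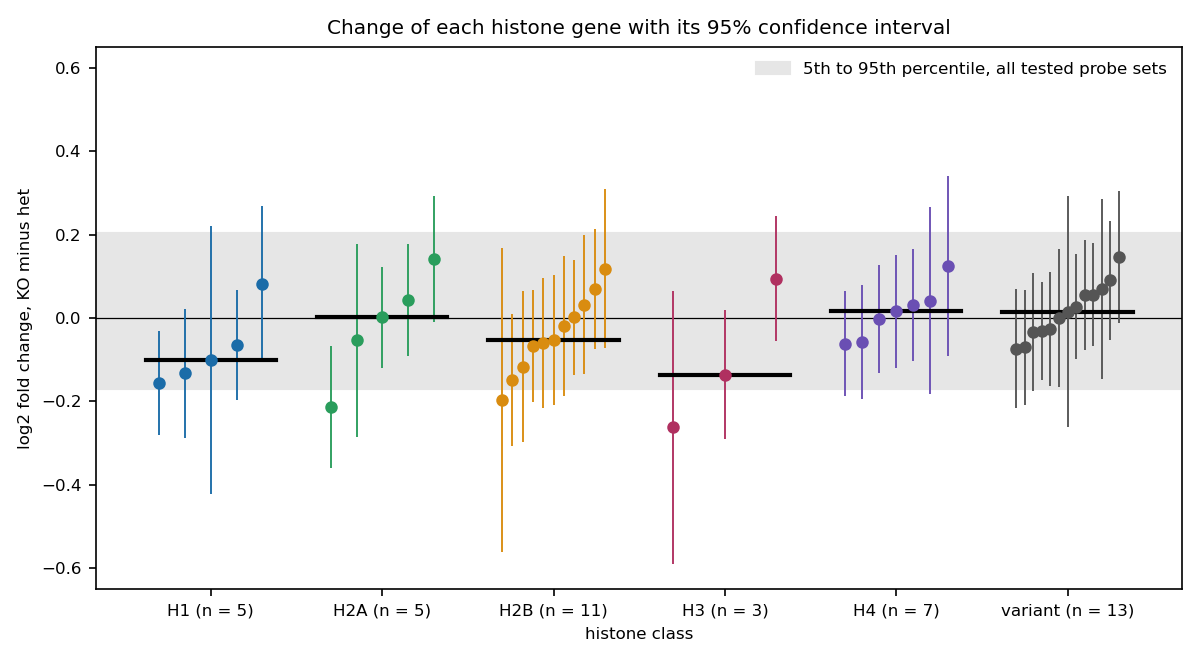
Log2 fold change (knockout minus heterozygote, vertical axis) of each of the 44 histone genes by class; points are estimates, thin bars are 95% confidence intervals, thick bars are class medians, and the grey band is the 5th to 95th percentile of all 21789 tested probe sets. The intervals of Hist1h1d in H1 and Hist1h2ae in H2A are the 2 that do not cross zero.

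Estimates of 41 of the 44 genes lay within the range from -0.17 to 0.20 that holds the middle 90% of all tested probe sets, as the plot of changes by class shows. The 3 genes outside it, Hist2h3c2, Hist1h2ae and Hist1h2bc, were all below it.

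Linker histone H1 binds where DNA enters and leaves the nucleosome and compacts the chromatin fibre. All 5 genes measured here lie in the Hist1 cluster on chromosome 13, and 4 of 5 had negative log2 fold changes, with a class median of -0.10. Hist1h1d (H1f3) stood at 5.67, 5.63 and 5.73 in heterozygotes and at 5.50, 5.51 and 5.54 in knockouts. All knockout pools were below all heterozygote pools. The log2 fold change was -0.16 (standard error 0.05, 95% confidence interval -0.28 to -0.03), which is 1.11-fold lower (limma, unadjusted p = 0.0199, adjusted p = 0.413). In such pooled tissue, fewer cells of a type and less RNA per cell cannot be told apart.

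Without heterozygote pool 3 the log2 fold change of Hist1h1d was -0.13 and its unadjusted p in limma was 0.072, and with the mean of 3 Y-linked genes as a covariate they were -0.12 and 0.123. Hist1h1a (H1f1), which encodes the subtype H1.1, was at 10.86, 10.85 and 11.04 in heterozygotes and at 10.82, 10.77 and 10.76 in knockouts. Its groups did not overlap either, but heterozygote pool 3 stood well above the other 5 pools, which lay close together. The log2 fold change was -0.13 with a 95% confidence interval from -0.29 to 0.02. Hist1h1b (H1f5), the brightest probe set of the class, had a log2 fold change of -0.06 and an interval from -0.20 to 0.07. Hist1h1c (H1f2), a subtype that persists in cells that have left the cycle, was the only H1 gene with a positive log2 fold change, at 0.08 with an interval from -0.10 to 0.27. Hist1h1t, the linker histone of spermatocytes, was at -0.10 with a wide interval from -0.42 to 0.22. Its 6 values were scattered, from 5.34 in knockout pool 2 to 5.88 in heterozygote pool 2.

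The 5 H1 promoters have CCAAT at like places, and they are shown here because the class had the lowest median after H3, whose 3 genes include only 2 with a promoter in the RefSeq table. The stretches below run from 130 to 21 bases before the start of transcription (RefSeq, GRCm38.p6). Capitals mark CCAAT, the TATA box TATAAA and the H1 AC box AAACACA, each searched on both strands, so that CCAAT may read ATTGG. No matches to different motifs overlapped in these promoters.
Hist1h1a, chr13:23763538-23763647, plus strand: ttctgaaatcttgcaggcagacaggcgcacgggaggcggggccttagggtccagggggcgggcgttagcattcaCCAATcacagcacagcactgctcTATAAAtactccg
Hist1h1b, chr13:21780646-21780755, minus strand: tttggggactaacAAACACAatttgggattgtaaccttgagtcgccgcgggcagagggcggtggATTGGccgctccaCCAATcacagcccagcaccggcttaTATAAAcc
Hist1h1c, chr13:23738677-23738786, plus strand: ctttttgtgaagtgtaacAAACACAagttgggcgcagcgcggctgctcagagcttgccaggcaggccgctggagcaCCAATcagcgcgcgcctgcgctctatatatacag
Hist1h1d, chr13:23554902-23555011, plus strand: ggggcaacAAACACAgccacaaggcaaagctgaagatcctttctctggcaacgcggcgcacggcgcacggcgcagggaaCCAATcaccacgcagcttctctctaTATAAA
Hist1h1t, chr13:23695681-23695790, plus strand: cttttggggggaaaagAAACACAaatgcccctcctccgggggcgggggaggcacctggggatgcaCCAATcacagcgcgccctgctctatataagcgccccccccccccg
A forward CCAAT began 51 to 65 bases before the start in all 5. TATAAA was found in 3 of 5, not in Hist1h1c or Hist1h1t. The AC box began 112 to 122 bases before it in 4 of 5, all but Hist1h1a, and 7.18% of all promoters in the table hold this motif somewhere in a window of the same length. CCAAT and the AC box thus lie at like places in Hist1h1b, Hist1h1c, Hist1h1d and Hist1h1t. Whether either motif bears on the log2 fold changes was not tested.

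H2A and H2B form the dimers on the outer faces of the nucleosome. Hist1h2ae (H2ac8) had the smallest p of all histone genes. It stood at 6.15, 5.98 and 5.99 in heterozygotes and at 5.80, 5.82 and 5.84 in knockouts, so that every knockout pool was below every heterozygote pool and heterozygote pool 1 was the highest. The log2 fold change was -0.21 (standard error 0.06, 95% confidence interval -0.36 to -0.07), which is 1.16-fold lower (limma, unadjusted p = 0.0101, adjusted p = 0.398). With the mean of 3 Y-linked genes as a covariate it was -0.18 and its unadjusted p was 0.0678.

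Hist1h2ae shares its promoter with the H2B gene Hist1h2bg (H2bc8). The genes point away from each other, Hist1h2ae on the minus strand and Hist1h2bg on the plus strand, and their starts are 180 bases apart. Hist1h2bg was at 8.83, 8.76 and 8.91 in heterozygotes and at 8.92, 8.75 and 8.93 in knockouts. Its groups overlapped fully, and the log2 fold change was 0.03 with a 95% confidence interval from -0.13 to 0.20. The difference between the partners was not tested. The stretch between their starts is shown on the strand of Hist1h2bg, with CCAAT (or ATTGG), the octamer ATTTGCAT and TATAAA in capitals (RefSeq, GRCm38.p6).
Hist1h2bg and Hist1h2ae, chr13:23571221-23571399, plus strand: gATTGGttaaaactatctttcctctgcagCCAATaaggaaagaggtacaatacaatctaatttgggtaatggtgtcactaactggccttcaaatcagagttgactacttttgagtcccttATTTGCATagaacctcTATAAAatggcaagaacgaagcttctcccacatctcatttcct
Its octamer and TATAAA lie on the side of Hist1h2bg, and its CCAAT motifs on the side of Hist1h2ae. The octamer was found in 4 of 5 promoters of H2A genes and in 5 of 8 of H2B genes, in none of those of the other classes, and in 1.74% of all promoters. Hist1h2ae and Hist1h2bg share the same octamer, as do the divergent genes Hist1h2aa and Hist1h2ba, and each shared site was counted in both classes.

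**Figure D2:**
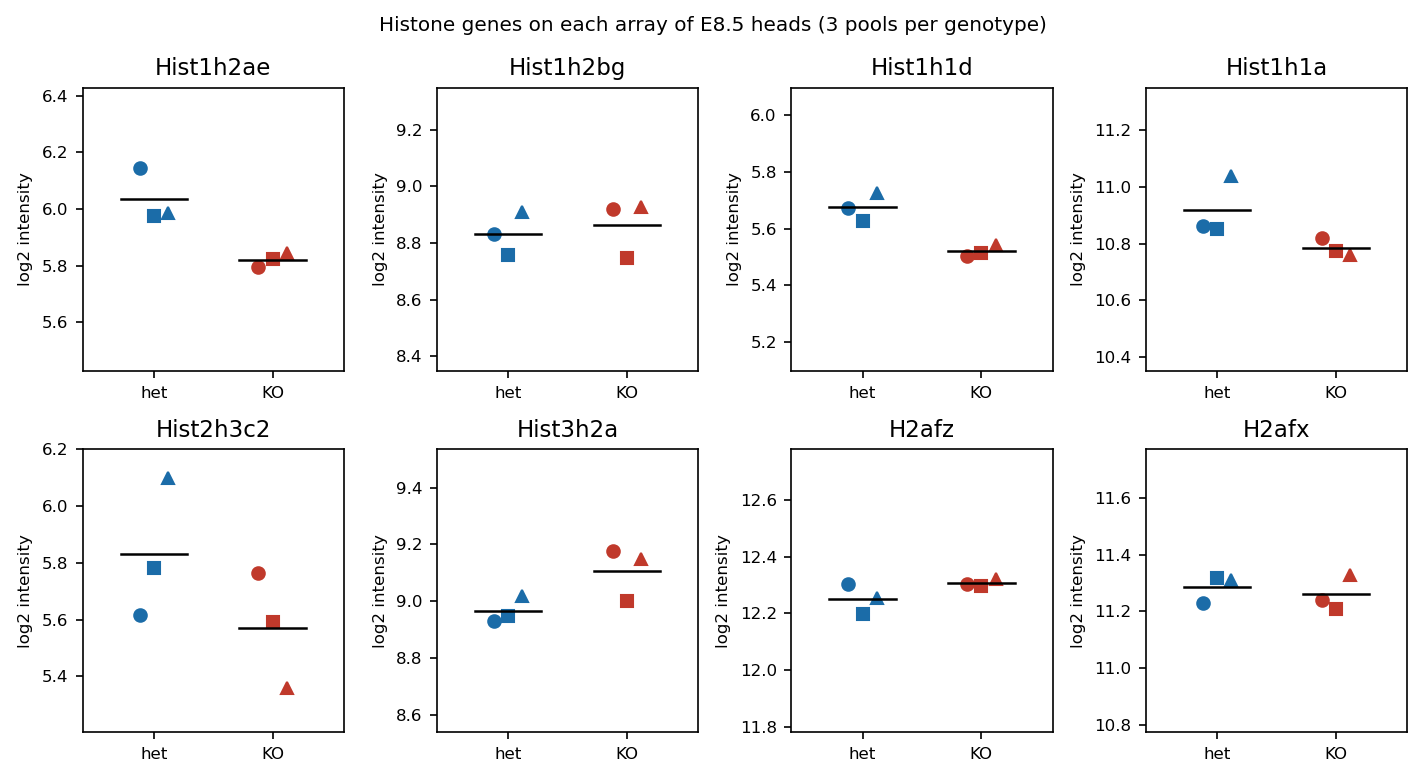
Log2 intensity (vertical axis, each panel spanning 1 unit) of 8 histone genes on each array; circles, squares and triangles are pools 1, 2 and 3 of each genotype (het, Jarid1b heterozygote; KO, knockout) and the line is the group mean. Hist1h2ae, Hist1h1d and Hist1h1a are lower in all knockout pools, with heterozygote pool 3 of Hist1h1a at 11.04 standing apart, while the divergent partner Hist1h2bg, H2afz and H2afx overlap.

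The other H2A genes lay on both sides of zero, and the class median was 0.002. Hist3h2a (H2aw) had the highest log2 fold change of the replication-dependent genes. It was at 8.93, 8.95 and 9.02 in heterozygotes and at 9.18, 9.001 and 9.15 in knockouts, where knockout pool 2 lay just below the highest heterozygote pool. The log2 fold change was 0.14 with an interval from -0.01 to 0.29 (limma, adjusted p = 0.485). Hist1h2aa, which encodes the testis histone TH2A, was at 0.04 and Hist1h2ab at -0.05, with an interval from -0.28 to 0.18. Hist1h2ak, the brightest H2A probe set, had a log2 fold change of 0.002 and an interval from -0.12 to 0.12.

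Among the 11 H2B genes 7 had negative log2 fold changes and the median was -0.05. The lowest was Hist1h2bc, at 7.48, 7.29 and 7.30 in heterozygotes and at 7.14, 7.51 and 6.82 in knockouts. Its knockout pools were both the highest and the lowest of all 6, and its log2 fold change of -0.20 had an interval from -0.56 to 0.17. Hist1h2bb was at 9.998, 9.92 and 9.95 in heterozygotes and at 9.80, 9.92 and 9.71 in knockouts. Knockout pools 1 and 3 were below all heterozygotes and knockout pool 2 was among them, with a log2 fold change of -0.15 and an interval from -0.31 to 0.01 (limma, adjusted p = 0.488). On the other side, Hist2h2be was at 0.12 (interval -0.07 to 0.31) and Hist1h2bp at 0.07 (interval -0.07 to 0.21). Hist2h2be is known as an H2B gene that also gives a polyadenylated mRNA in cells that no longer divide. Hist1h2bm, the brightest of the class, was at -0.05 with an interval from -0.21 to 0.10.

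H3 and H4 form the tetramer at the core of the nucleosome, and the tail of H3 carries the K4 methylation that Jarid1b removes. Most H3 copies are too alike for a probe set of their own, and 3 H3 genes were measured alone. Hist2h3c2 had the lowest log2 fold change of all 44 genes. It was at 5.62, 5.78 and 6.10 in heterozygotes and at 5.76, 5.59 and 5.36 in knockouts. The groups overlapped, heterozygote pool 3 was the highest and knockout pool 3 the lowest, and the log2 fold change of -0.26 had a standard error of 0.14 and an interval from -0.59 to 0.06 (limma, adjusted p = 0.545).

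Hist1h3d (H3c4), the brightest H3 probe set, was at 6.95, 6.78 and 6.81 in heterozygotes and at 6.76, 6.64 and 6.73 in knockouts, so that the groups did not overlap, although by only a small margin. Its log2 fold change was -0.14 with an interval from -0.29 to 0.02. Hist1h3f (H3c7), a dim probe set, was at 4.16, 4.29 and 4.30 in heterozygotes and at 4.31, 4.30 and 4.42 in knockouts. All its knockout pools were above the heterozygotes by a margin far below the spread, and the log2 fold change was 0.09 with an interval from -0.06 to 0.24.

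The 7 H4 genes stayed closest together, with log2 fold changes from -0.06 to 0.12 and a median of 0.02. Hist1h4d (H4c4), the brightest, was at 12.60, 12.66 and 12.69 in heterozygotes and at 12.69, 12.59 and 12.66 in knockouts. The groups overlapped fully, and the log2 fold change of -0.002 had an interval from -0.13 to 0.13. The lowest were Hist1h4f at -0.06 (interval -0.19 to 0.07) and Hist2h4 at -0.06 (interval -0.19 to 0.08). The highest were Hist1h4i at 0.12 (interval -0.09 to 0.34) and Hist1h4h at 0.04 (interval -0.18 to 0.27). For Hist1h4i the value of 8.29 in knockout pool 3 lay apart from the other 5 pools, which ran from 7.87 to 8.03.

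In all, the groups did not overlap for 4 of the 44 histone genes on the lower side (Hist1h1d, Hist1h1a, Hist1h2ae and Hist1h3d), against 9.03% of all tested probe sets. On the higher side this held for 2 of 44 (Hist1h3f and the variant H2al2a), against 8.03%. By cluster, the 23 genes of Hist1 had a median log2 fold change of -0.02, the 4 of Hist2 on chromosome 3 of -0.09, the 3 of Hist3 on chromosome 11 of -0.06, and Hist4h4, alone on chromosome 6, was at 0.02.

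Many variants can replace canonical histones outside S phase. Of the 13 variants, 8 had positive and 5 negative log2 fold changes, all between -0.07 and 0.15, and none had an unadjusted p under 0.05. H2afz (H2az1), which encodes the H2A.Z protein found at promoters and enhancers, was at 12.30, 12.20 and 12.25 in heterozygotes and at 12.31, 12.30 and 12.32 in knockouts. Its 3 knockout pools were nearly equal and overlapped with heterozygote pool 1. The log2 fold change was 0.06 with an interval from -0.07 to 0.18, and its second probe set gave 0.06 too. H2afv (H2az2), the other H2A.Z gene, was at -0.07 with an interval from -0.21 to 0.07.

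H2afx (H2ax), the variant phosphorylated at DNA breaks, was at 11.23, 11.32 and 11.31 in heterozygotes and at 11.24, 11.21 and 11.33 in knockouts. Its groups overlapped and the log2 fold change was -0.03 with an interval from -0.16 to 0.11. The macroH2A genes H2afy and H2afy2, whose proteins carry a large extra domain, were at 0.03 (interval -0.10 to 0.15) and -0.03 (interval -0.15 to 0.09). H2afy3, which RefSeq lists as a transcribed pseudogene of this group, was at 0.09 with an interval from -0.05 to 0.23. H2afj, a variant close to canonical H2A, was at -0.07 (interval -0.22 to 0.07) and H1fx, a linker histone gene outside the clusters, at -0.03 (interval -0.18 to 0.11).

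H3.3 is placed into chromatin independently of replication, and its genes H3f3a and H3f3b encode the same protein. The probe set of H3f3a alone was at 5.33, 5.32 and 5.36 in heterozygotes and at 5.48, 5.26 and 5.26 in knockouts. Knockout pool 1 was the highest and the other knockout pools were the lowest, and the log2 fold change was 0.0002 with an interval from -0.17 to 0.17. This probe set lies just above the dimmest 7263 of all tested probe sets, which reach up to 5.33. A further 4 brighter probe sets, with means of 11.06 to 11.43, are paired with H3f3a and the gene model Gm12657. Their log2 fold changes ran from 0.03 to 0.07, and in 2 of them all knockout pools were above all heterozygotes (8.03% of all tested probe sets). Another 2 are paired with H3f3b and Gm6485, at -0.02 and -0.08, both with all knockout pools below all heterozygotes (9.03%). The signal of these genes cannot be separated on such probe sets. Bright probe sets separated more often on the lower side. Of the brightest 7263 with a single symbol, 222 had all knockout pools above all heterozygotes and 1222 had them all below.

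Of the 44 genes, 7 are known from the testis or the oocyte. They had a median log2 fold change of 0.04, and none had an unadjusted p under 0.05. The highest of them, and of all 44 genes, was H2al2a, an H2A variant of late spermatids, which was included only because RefSeq lists H2afb1, the older name of another member, among its synonyms. It was at 5.70, 5.69 and 5.60 in heterozygotes and at 5.71, 5.81 and 5.91 in knockouts, with the groups just separate, and its log2 fold change of 0.15 had an interval from -0.01 to 0.30 (limma, adjusted p = 0.494). The testis variant H2afb1 was at 0.07 (interval -0.15 to 0.29), the testis linker histone gene H1fnt at 0.02 (interval -0.26 to 0.29) and the oocyte linker histone gene H1foo at 0.05 (interval -0.08 to 0.19). Germ cell markers were dim, with mean log2 intensities of 3.27 to 4.37 for Dppa3, Dazl and Ddx4, where the dimmest 7263 of all tested probe sets reach up to 5.33. The histone H2A and H2B genes of the testis pair, Hist1h2aa and Hist1h2ba, were at 0.04 and -0.02.

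Promoters of replication-dependent and variant genes differed in their motif counts, by sequence alone. RefSeq windows of 300 bases, 250 before and 50 after the start, were given for 37 of the 44 genes. TATAAA was found in 16 of 26 replication-dependent promoters (61.5%) and in 0 of 11 variant promoters, against 13.6% of all 32851 promoters in the table. CCAAT was found in 22 of 26 replication-dependent promoters (84.6%) and 7 of 11 variant promoters, against 37.4% of all. H4 promoters differed from the other replication-dependent ones in these counts, with CCAAT in 2 of 6. Motifs were counted on either strand anywhere in the window, and a match shared by divergent genes was counted for each of them. A TATAAA match is thus not always a TATA box near the start. In Hist1h4f, for example, it began 250 bases before the start. Matches describe the letters only and say nothing of binding.

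Most histone copies are so alike that the array cannot separate them. In addition to the probe sets above, 33 carried at least 1 histone gene together with other genes, and 24 of these listed 11 to 20 symbols each. In a fit of all 35556 rows, 0 of these 33 had an unadjusted p under 0.05 in either direction, against 8.58% of all rows. Their log2 fold changes ran from -0.23 to 0.09 with a median of -0.02, next to 0.005 over all rows. The 10 shared probe sets of H3 lay between -0.03 and -0.01, the 7 of H2B between -0.04 and -0.02, and the 5 of H4 with 11 symbols between -0.02 and 0.004. These rows are not independent, since they share genes and 4 had values identical to another row. The lowest value, -0.23, came from a probe set of 2 H4 genes (H4c11 and H4c17) with an interval from -0.58 to 0.13. Probe sets with a single symbol may also take up signal from near-identical copies, so the value of a single replication-dependent gene is uncertain in that respect.

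Heterozygote pool 3 differed from the other arrays in these genes. Of the 31 replication-dependent genes, 11 were highest in this pool (35.5%, against 16.3% of all tested probe sets), and 1 was highest in knockout pool 2 (3.23%, against 15.4%). Heterozygote pool 1 was the lowest array for 9 of 31 genes (29%, against 14.8%). The median deviation of the replication-dependent genes from their own means was 0.045 in heterozygote pool 3 and between -0.026 and 0.005 on the other arrays. It was 0.13 in this pool for the 5 H1 genes. Without heterozygote pool 3 the median log2 fold change of the replication-dependent genes was -0.0076 in place of -0.0528. Leaving out any other array also moved it toward zero, except heterozygote pool 1, without which it was -0.0552. It was -0.0244 without heterozygote pool 2, and -0.0235, -0.0342 and -0.0257 without knockout pools 1, 2 and 3 in turn. What set heterozygote pool 3 apart was not tested.

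**Figure D3:**
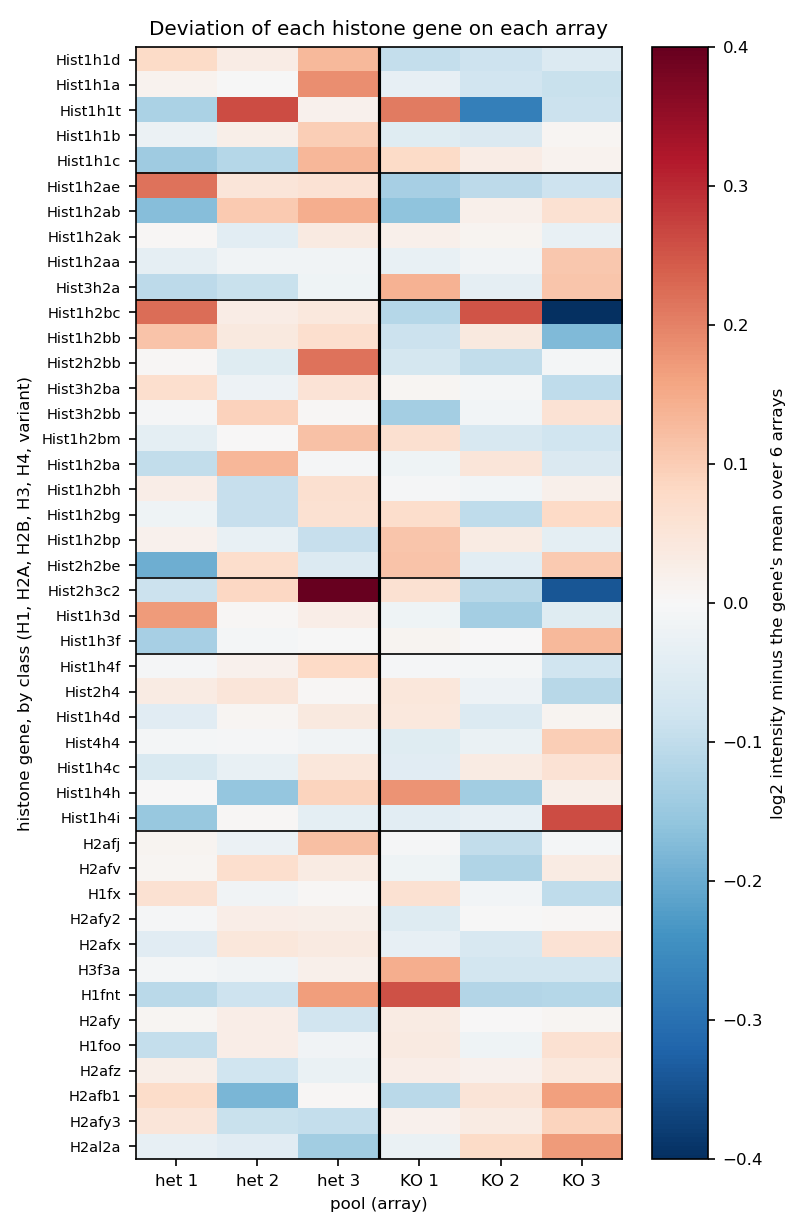
Deviation of each of the 44 histone genes on each array (columns: heterozygote pools 1 to 3, knockout pools 1 to 3) from the gene's mean over 6 arrays, in log2 units (colour, red above and blue below the mean, limited at 0.4). Genes are ordered by class and, within it, by log2 fold change; red is most frequent in heterozygote pool 3 among the replication-dependent genes.

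In the heat map of deviations, the class median of H2B was above zero on all heterozygote arrays, by 0.002 to 0.054, and below zero on all knockout arrays, down to -0.039. The class median of H1 was below zero on all knockout arrays, between -0.077 and -0.033, but also in heterozygote pool 1, at -0.023. The strongest colours belong to Hist1h2bc in knockout pool 3 and to Hist2h3c2 in heterozygote pool 3 and knockout pool 3, and Hist1h1t, H1fnt, Hist1h4i and Hist1h2bc also have strongly coloured squares on single arrays.

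Bright probe sets tended to be lower in knockouts over the whole array, and histone genes are mostly bright. Split by intensity, the dimmest 7263 of all tested probe sets had a median of 0.056, the middle 7263 of -0.0004 and the brightest 7263 of -0.035. The 24 histone genes in the brightest group had a median of -0.032, close to that of all probe sets there. The 17 in the middle had a median of 0.0002, and the 3 in the dimmest of 0.071. These groups pool replication-dependent genes with variants, and no median of the replication-dependent genes alone was taken by intensity. Every knockout pool was below every heterozygote pool for 1222 of the brightest 7263 probe sets, and for 1 of the 24 histone genes there. After cyclic loess normalization, which removes such a lean with intensity, the replication-dependent median was -0.024 and the variant median 0.007. This normalization moved Hist1h2ae from -0.21 to -0.25 and Hist1h1d from -0.16 to -0.20, and both genes lie in the middle group. Whether intensity bears on the medians of the histone genes was not tested.

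**Figure D4:**
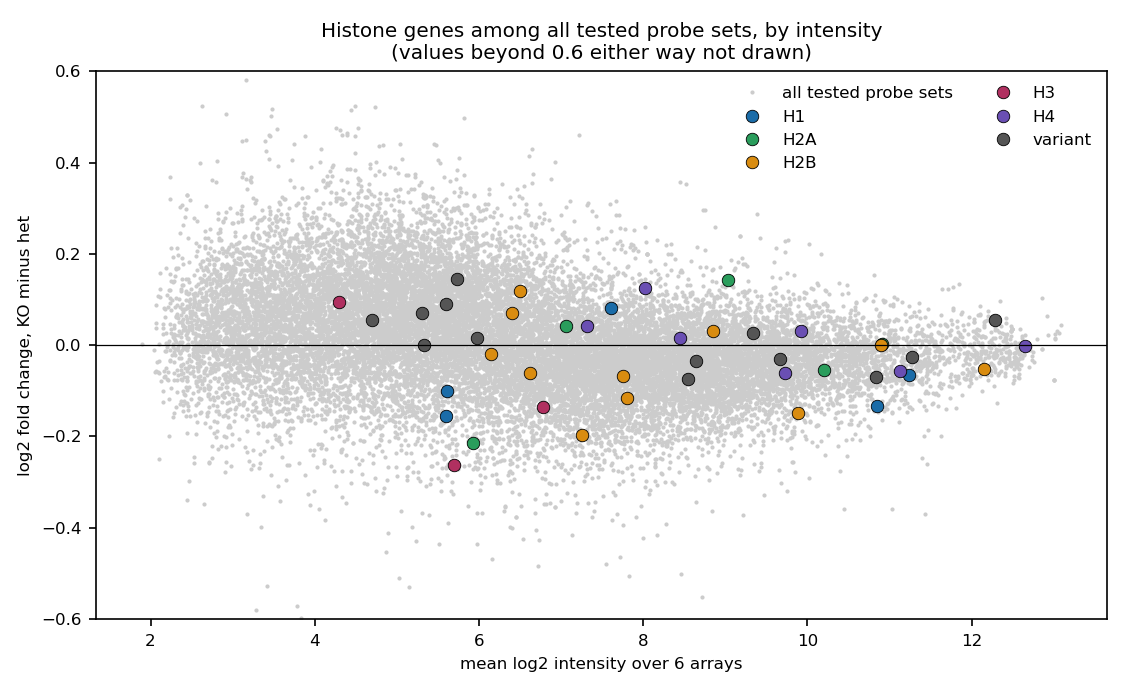
Log2 fold change (knockout minus heterozygote, vertical axis) against the mean log2 intensity over 6 arrays (horizontal axis) for all 21789 tested probe sets (grey, those beyond 0.6 either way not drawn) and the 44 histone genes (coloured by class). The histone genes lie within the grey cloud, and 24 of them are among the brightest 7263, where the median of all probe sets is -0.035.

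Genes that make, process and place histones were read from lists. The smallest adjusted p among all of them (limma) was 0.413. Of 7 listed genes for histone transcription, 6 were measured, and none had an unadjusted p under 0.05 in either direction. The extremes were Ccne2, a cyclin that activates Cdk2 at the start of S phase, at -0.13 (interval -0.28 to 0.02), and Casp8ap2, a component of the histone locus body, at 0.08 (interval -0.07 to 0.23). Npat, the coactivator of histone genes that Cdk2 phosphorylates, was at -0.12 with an interval from -0.27 to 0.04.

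All 11 listed genes for 3′ end processing and decay of histone mRNA were measured, of which 1 was higher in knockouts and 1 was lower when the unadjusted p had to be under 0.05, against 5.97% and 4.66% of all tested probe sets. Zfp473, which encodes a zinc finger protein of the U7 processing complex, was at 6.05, 5.86 and 5.93 in heterozygotes and at 6.14, 6.12 and 6.13 in knockouts. All knockout pools were above all heterozygotes, with a log2 fold change of 0.19 and an interval from 0.04 to 0.33 (limma, adjusted p = 0.413). Lsm10, which encodes a ring protein of the U7 particle, was at 8.22, 8.13 and 8.39 in heterozygotes and at 8.05, 8.07 and 8.03 in knockouts. All knockout pools were below all heterozygotes, with a log2 fold change of -0.20 and an interval from -0.36 to -0.03 (limma, adjusted p = 0.424). Slbp, the stem-loop binding protein, was at -0.14 with an interval from -0.30 to 0.01. The list as a whole had a median of -0.03.

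Histone chaperones and exchangers escort new histones and swap variants in and out. Of 23 listed, 21 were measured and none had an unadjusted p under 0.05. Their median was -0.02, with Chaf1a, the large subunit of the CAF-1 complex that deposits H3 and H4 behind the replication fork, lowest at -0.13 (interval -0.34 to 0.08). Supt16, a subunit of the FACT complex, was highest at 0.09 (interval -0.05 to 0.22). Hira, which deposits H3.3, was at 0.02 and Vps72, a subunit of the complex that inserts H2A.Z, at -0.13 with an interval from -0.26 to 0.003.

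All 22 listed S phase genes were measured, and 1 of them had an unadjusted p under 0.05, in the lower direction, against 4.66% of all tested probe sets. The lower gene was Orc1, the large subunit of the origin recognition complex, at 8.66, 8.74 and 8.65 in heterozygotes and at 8.54, 8.58 and 8.54 in knockouts. Every knockout pool was below every heterozygote pool, and the log2 fold change was -0.13 with an interval from -0.26 to -0.01 (limma, adjusted p = 0.454). Pcna, the sliding clamp of DNA replication, was highest at 0.08 (interval -0.05 to 0.20). The list had 5 positive and 17 negative values with a median of -0.02. All its probe sets had mean log2 intensities of 8.60 or more, in the range where the median of all probe sets was also negative. Of the brightest 7263 probe sets, 487 were lower by the same threshold, and 1222 had every knockout pool below every heterozygote pool.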

How the data were processed

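Heads of E8.5 embryos were measured on 6 arrays, 3 Jarid1b heterozygote and 3 knockout pools of 4 heads, with groups taken from the sample labels. The authors deposited linear intensities. The submitters' processing notes name RMA and Affymetrix Power Tools, with no version in the sources used here. These run from 2.53 to 11741, and log2 was taken. RMA compresses differences of dim probe sets and includes quantile normalization of the probes, which removes most of a shift common to all genes. The number of arrays limits the precision.

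Of 35556 rows, the 21789 with 1 gene symbol in the platform annotation were tested. Symbols of 21698 were matched by gene number to RefSeq (GRCm38.p6). Knockouts and heterozygotes were compared with limma 3.58.1 in R 4.3.3 (lmFit, eBayes, no covariate), with Benjamini-Hochberg adjustment over the 21789 probe sets. Intervals are at 95%. Scripts were tested on simulated data.

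The histone genes and companion lists were chosen with earlier results of these data known. Named genes are all variants, the 2 highest, 2 lowest and the brightest of each class, the extremes of each companion list, every histone or companion gene at an unadjusted p under 0.05, Jarid1b, Xist and the Y-linked genes, of which Eif2s3y, Kdm5d and Uty were used as a covariate and Ddx3y had no probe set of its own. Others (Hist1h2bg, Hist1h2ba, Hist3h2bb, Hist4h4, the genes of shared probe sets, Npat, Slbp, Hira, Vps72 and the cell type markers) were named after their values were seen. Alternatives excluded dim probe sets (those below the median intensity of all tested), took all rows or the mean of rows per gene, applied median centring, quantile or cyclic loess normalization, trended and robust variances, array weights, a replicate block or a Y-linked covariate, and dropped each array in turn. The replicate numbers were checked for pairing: the deviations of same-numbered arrays correlated at 0.001, 0.106 and -0.013. These values gave no clear sign of pairing, but with 3 arrays per group they cannot exclude it.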

Additional observations from a re-analysis of the deposited data

How the results depend on the processing

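Under all 16 alternatives Jarid1b kept an adjusted p under 0.05 (limma) and no histone gene had one, the smallest being 0.352. The count of histone genes higher at an unadjusted p under 0.05 was 0 and became 1 without dim probe sets, after quantile or cyclic loess normalization, with trended and robust variances and with array weights (Hist3h2a in each but the last, where it was H2al2a). The count of lower genes was 2 and became 1 without dim probe sets (Hist1h2bb, since Hist1h2ae and Hist1h1d lie below the median intensity of all tested probe sets, the limit used) and 0 with the Y-linked covariate, where Hist1h2ae was at -0.18 and Hist1h1d at -0.12. The cause of that change was not tested. Leaving out each array gave 0 to 1 higher genes, 1 to 4 lower genes and 1 to 2 probe sets at an adjusted p under 0.05. The 1 lower gene, Hist1h2ae, was found without heterozygote replicate 3, and the 4 lower genes, which added Hist1h2bb and Hist1h2bc, without knockout replicate 2. With trended and robust variances 3 genes were lower, as Hist1h1d missed the unadjusted threshold and Hist1h1a and Hist1h2bb passed it beside Hist1h2ae. Medians of log2 fold changes ran from -0.0558 to -0.0076 for replication-dependent genes and from -0.0305 to 0.0367 for variants. The SD of the median intensity between arrays was 0.0867 and 0.0600. It is larger than the medians of the main fit, so it cannot show whether they were stable. Of the 44 genes, 17 changed sign at least once. With the replicate block, which the pairing check does not call for, there were 0 higher and 2 lower genes and medians of -0.0528 and 0.0157. Dim probe sets respond less to a change in RNA, and 31 of the 44 genes lie above the median intensity.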

Other observations

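Histone genes outside the naming rule gave values of the same size. Cenpa, which encodes the H3 variant of centromeres, was at 10.26, 10.23 and 10.25 on the log2 scale in heterozygotes and at 10.13, 10.20 and 10.19 in knockouts. All knockout pools were below the heterozygotes, and the log2 fold change was -0.08 with an interval from -0.19 to 0.04 (limma, adjusted p = 0.622). Hils1, a linker histone gene of spermatids, was at -0.01 (interval -0.15 to 0.14). The pair Hist1h2aa and Hist1h2ba, known from the testis, is divergent like Hist1h2ae and Hist1h2bg, with starts 281 bases apart. Both probe sets of H2afb1 hold the same 6 values.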
